A study of Mus musculus with 6 samples.

Results

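The 10 genes described here encode the core of the inflammasome and its interleukin-1 family products in mouse liver: the sensors Nlrp3 and Aim2, the adaptor Pycard, the caspases Casp1 and Casp4, the pore-former Gsdmd, the cytokines Il1a, Il1b and Il18, and the receptor antagonist Il1rn. They were chosen by gene symbol, with earlier results of these data known, and are 10 of the 24982 genes in the count tables. All 10 had enough reads to be tested, among 12949 tested genes. The study measured polyA RNA of flash-frozen whole liver from male C57BL/6NJ mice. The groups were a high fat diet with sugar water (HFHS) and a chow diet, with 3 samples each after 54 weeks on the diet. The series concerns a diet model in which inflamed fatty liver goes on to cancer. The labels do not say that each sample came from its own animal, nor whether tumour tissue was included, so a p-value reflects how these samples vary and not necessarily how animals do.

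An inflammasome is a protein platform that forms in the cytosol when a sensor meets a danger signal. The sensor gathers the adaptor ASC, which gathers and activates caspase-1, and caspase-1 then cleaves the precursors of interleukin-1 beta and interleukin-18 and the pore protein gasdermin D. The level of an mRNA says nothing of this assembly or cleavage, which act on proteins. In liver, resident macrophages (Kupffer cells) and recruited myeloid cells are known as main sources of these sensors and of interleukin-1.

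Gene counts were 16565335 to 20585366 per library, so that 3 counts, taken as the floor, correspond to 0.115 to 0.202 CPM (counts scaled to library size, with library sizes adjusted by the TMM method). All levels below are in CPM unless another scale is named. HFHS replicate 2 stood apart from the others, with the lowest share of albumin (Alb) reads, 3.05% of gene counts, and a TMM factor of 1.26. It was the highest of all 6 libraries for 9 of the 10 genes. Chow replicate 1 was the highest chow library for 7 of them. By the test used below, 11.0% of all tested genes were higher in HFHS livers and 3.61% were lower. Of 12 macrophage markers, 11 were higher by that test, with a median log2 fold change of 2.06 over the list. Timd4, a marker of long-resident Kupffer cells, did not pass. The 11 became 4 without chow replicate 2 and 0 without chow replicate 3. The summed level of all 12 was 1239 to 2367 CPM in HFHS livers and 375 to 587 CPM in chow livers. In whole tissue, more cells of a type and more RNA per cell cannot be told apart. Of 10 hepatocyte markers, 0 were higher and 1 was lower in HFHS livers, a call lost when any 1 chow library was left out. An alternative test, DESeq2, called 4 lower. The median log2 fold change of the list was -0.71. For 4 of the 10, all HFHS libraries lay below all chow libraries. Ass1, 1 of these 4, had only 3 to 29 counts in a library. The summed level of the 10 hepatocyte markers was 47879 to 103614 CPM in HFHS livers and 111016 to 134670 CPM in chow livers. Of 8 muscle and gut markers, Myh1, Myog and Cdx2 had 0 counts in all 6 libraries. Lgr5 had 101 to 179 counts and did not pass the test. Vil1 had at most 11 counts in a library, Acta1 at most 5, and Ckm and Muc2 at most 1.

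Of the 10 genes, 8 rose in HFHS livers and 0 fell, at an adjusted p under 0.05 in edgeR's quasi-likelihood test with Benjamini-Hochberg adjustment over all tested genes. Among all tested genes, 11.0% rose and 3.61% fell by the same rule. Because the 10 genes were chosen with earlier results known, setting them beside all genes is a description and not a test. The genes that rose were Nlrp3, Aim2, Pycard, Casp1, Casp4, Il1a, Il1b and Il1rn. Gsdmd and Il18 did not pass the test. The median log2 fold change of the 10 genes was 1.79, against -0.02 for all tested genes. All 3 HFHS libraries lay above all 3 chow libraries for 8 of the 10 genes, as they did for 21.5% of all tested genes. They lay below all 3 chow libraries for 1 gene, Il18, as they did for 18.0% of all tested genes. The median of the 10 genes relative to the chow mean was 1.35, 2.34 and 1.56 on the log2 scale in HFHS replicates 1, 2 and 3. Without HFHS replicate 2, 6 of the 10 genes were called, all higher. Without chow replicate 3, edgeR called 0 of the 10 genes, with 9 at an unadjusted p under 0.05 and a smallest adjusted p of 0.0528. Only 6 of all genes were then called, against 1896 with all libraries. Without chow replicate 2, 4 genes were called, 3 of them higher and 1, Il18, lower.

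**Figure D1:**
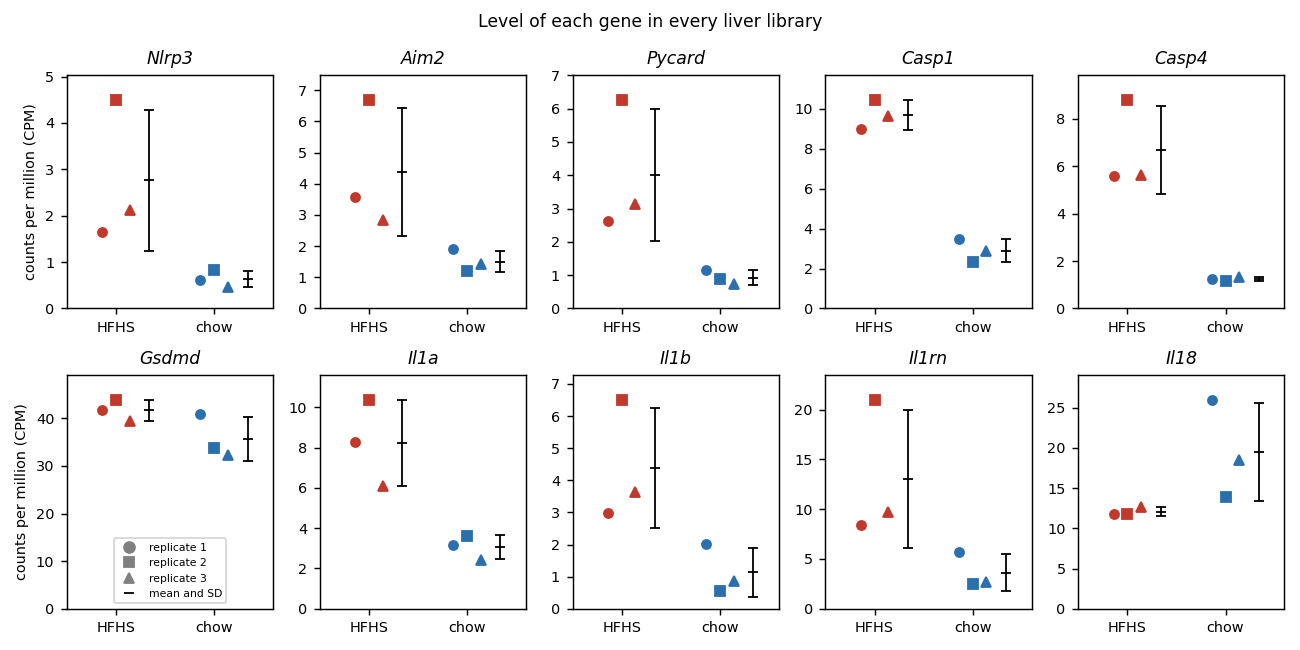
Level of each of the 10 genes in every library, in CPM on linear axes that start at 0, with HFHS left of chow. Points are libraries, with a shape for each replicate number, and bars are mean and SD (n = 3). The HFHS points lie above the chow points for 8 genes, overlap them for Gsdmd and lie below them for Il18.

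**Figure D2:**
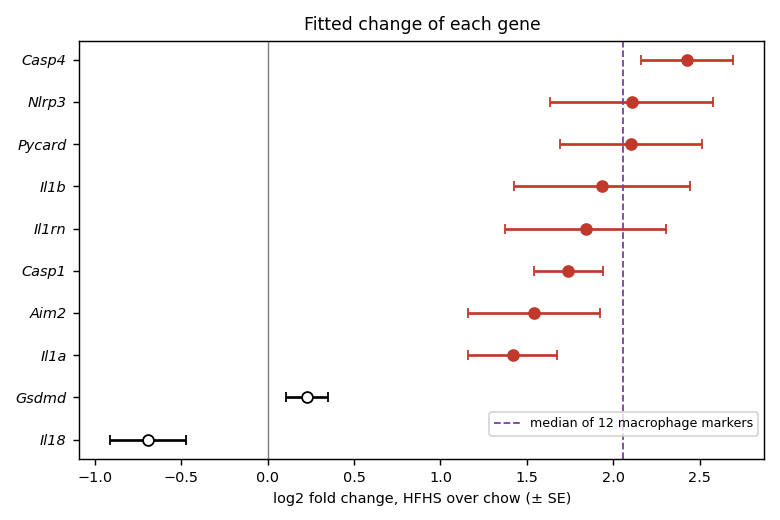
Log2 fold change of HFHS over chow for each of the 10 genes, from edgeR. Points carry bars of 1 SE and are filled where the adjusted p is under 0.05, and the lines mark 0 and the median of the 12 macrophage markers, 2.06. Casp4 has the highest value, 2.43, and Il18 is the 1 gene below 0.

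Nlrp3, the sensor that responds to crystals, extracellular ATP and potassium loss, had 1.65, 4.50 and 2.12 CPM in HFHS livers, against 0.612, 0.825 and 0.471 CPM in chow livers. The groups did not overlap, and HFHS replicate 2 was the highest. Nlrp3 rose by a log2 fold change of 2.11 ± 0.47 (SE, n = 3 each; edgeR quasi-likelihood, Benjamini-Hochberg adjusted p = 0.0267). Its chow levels rest on 11, 15 and 7 counts. Aim2, a sensor of double-stranded DNA in the cytosol, had 3.56, 6.70 and 2.85 CPM in HFHS livers, against 1.89, 1.21 and 1.41 CPM in chow livers. The lowest HFHS library was 1.51 times the highest chow library. The log2 fold change of Aim2 was 1.54 ± 0.38 (SE; edgeR adjusted p = 0.0358). Without HFHS replicate 2, it was 1.10 for Aim2 and 1.55 for Nlrp3, and both passed the test. Aim2 missed the threshold without HFHS replicate 1 (edgeR adjusted p = 0.0524). Neither sensor passed it when chow replicate 1, 2 or 3 was left out, at adjusted p-values from edgeR of 0.0660, 0.112 and 0.128 for Aim2 and of 0.0803, 0.0685 and 0.108 for Nlrp3.

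Pycard encodes ASC, the adaptor that joins either sensor to caspase-1. It had 2.63, 6.27 and 3.13 CPM in HFHS livers, against 1.17, 0.880 and 0.741 CPM in chow livers. Every HFHS library was above every chow library, and HFHS replicates 1 and 3 were close to each other. Pycard rose by a log2 fold change of 2.10 ± 0.41 (SE; edgeR adjusted p = 0.0190). The call was lost without chow replicate 2 (edgeR adjusted p = 0.0675) or chow replicate 3 (edgeR adjusted p = 0.0885). Pycard shares exon sequence with a predicted transcript on the other strand, Gm45205, which is not among the counted genes.

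The caspase genes lie in a row on the plus strand of chromosome 9 (GRCm38), with Casp1 at chr9:5298517-5307265, Casp4 at chr9:5308828-5336783 and the related Casp12 at chr9:5345430-5373032. The 250 bases before the RefSeq start of each of the 2 member caspase genes are shown because both genes rose and the windows differ in motif content. They come from RefSeq (GRCm38.p6, plus strand) and are chr9:5298267-5298516 for Casp1 and chr9:5308599-5308848 for the first listed start of Casp4. Capitals mark matches to the NF-kB consensus.
Casp1: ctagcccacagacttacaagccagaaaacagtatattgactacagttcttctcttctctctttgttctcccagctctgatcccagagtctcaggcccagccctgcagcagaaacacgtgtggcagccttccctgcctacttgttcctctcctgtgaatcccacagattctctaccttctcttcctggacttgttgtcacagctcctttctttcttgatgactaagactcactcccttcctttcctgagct
Casp4: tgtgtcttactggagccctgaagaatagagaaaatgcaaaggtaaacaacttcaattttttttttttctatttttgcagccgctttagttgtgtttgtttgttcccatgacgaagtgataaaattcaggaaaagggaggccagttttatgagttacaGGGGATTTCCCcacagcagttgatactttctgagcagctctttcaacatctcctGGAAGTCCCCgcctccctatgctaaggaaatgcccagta
The Casp4 window held NF-kB matches at 93 to 83 and at 39 to 30 bases before the start, the first of them several overlapping matches on both strands. The Casp1 window held none of the 7 motifs searched. An NF-kB match was present in 7.25% of 32851 RefSeq windows of this length. Casp4 and Nlrp3, at the second of its starts, were the 2 of 9 member genes with one. A gene was counted if any of its listed starts had a match, whereas the share is per window, so the 2 are not like for like.

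Casp1, the protease that matures interleukin-1 beta and interleukin-18, had 8.99, 10.5 and 9.66 CPM in HFHS livers, against 3.50, 2.31 and 2.90 CPM in chow livers. The HFHS libraries differed among themselves by a factor of 1.16 only, HFHS replicate 2 included, and the lowest was 2.57 times the highest chow library. Casp1 rose by a log2 fold change of 1.74 ± 0.20 (SE; edgeR adjusted p = 0.00775). Casp4, the mouse caspase-11 gene, whose product binds cytosolic lipopolysaccharide and cleaves gasdermin D, had 5.58, 8.81 and 5.64 CPM in HFHS livers, against 1.22, 1.15 and 1.35 CPM in chow livers. The lowest HFHS library was 4.14 times the highest chow library, the widest gap of the 10 genes. Its log2 fold change was 2.43 ± 0.27 (SE; edgeR adjusted p = 0.00775). Both caspases kept their call in every alternative run except the one without chow replicate 3, where the edgeR adjusted p was 0.0545 for Casp1 and 0.0528 for Casp4. Casp12, which is not one of the 10 genes, had 15.5, 20.9 and 12.7 CPM in HFHS livers, against 2.00, 1.87 and 1.08 CPM in chow livers. Casp12 rose by a log2 fold change of 3.29 ± 0.29 (SE; edgeR adjusted p = 0.00697).

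Gsdmd encodes gasdermin D, whose cleaved part opens pores in the cell membrane. It had 41.7, 43.9 and 39.5 CPM in HFHS livers, against 40.9, 33.8 and 32.3 CPM in chow livers. The groups overlapped, since chow replicate 1 was above HFHS replicate 3. The log2 fold change was 0.23 ± 0.12 (SE; edgeR adjusted p = 0.241). It did not pass the test in any alternative, where it ran from 0.15 to 0.50. Its value moved with the scaling, to 0.31 with upper-quartile scaling and 0.50 with library size only, both at an unadjusted p under 0.05 in edgeR.

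Il1a and Il1b lie on the minus strand of chromosome 2 (GRCm38), at chr2:129299610-129309972 and chr2:129364570-129371139. Il1rn lies on the plus strand of the same chromosome at chr2:24336853-24351494, far from both. The 250 bases before the starts of Il1a and Il1b are shown for their start-proximal elements. They come from RefSeq (GRCm38.p6, minus strand) and are chr2:129309973-129310222 and chr2:129371140-129371389. Capitals mark TATAAA in both and also GAGGAAG (PU.1) and TGANTCA (AP-1) in Il1a.
Il1a: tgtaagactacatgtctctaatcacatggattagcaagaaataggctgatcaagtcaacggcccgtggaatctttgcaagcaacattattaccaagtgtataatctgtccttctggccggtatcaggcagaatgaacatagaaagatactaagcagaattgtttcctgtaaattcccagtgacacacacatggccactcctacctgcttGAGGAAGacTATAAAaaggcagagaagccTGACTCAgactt
Il1b: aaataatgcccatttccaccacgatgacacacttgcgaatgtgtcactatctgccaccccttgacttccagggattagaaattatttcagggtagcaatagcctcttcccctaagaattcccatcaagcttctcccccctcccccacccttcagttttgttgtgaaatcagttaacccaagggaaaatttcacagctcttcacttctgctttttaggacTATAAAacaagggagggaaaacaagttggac
The TATA box lay 32 to 27 bases before the start in Il1a and 31 to 26 bases before it in Il1b. The Il1a window also held a PU.1 match at 41 to 35 bases and an AP-1 match at 12 to 6 bases before the start. Over the 9 member genes in the promoter table, PU.1 matches were in 4, TATAAA in 3, AP-1 in 2 and the C/EBP motif TTGCNNAA in 1. The IRF motif GAAANNGAA and the GAS motif TTCNNNGAA were in 0. Both strands were searched, and TATAAA in Il18 lay on the opposite strand, 175 to 170 bases before the start. The sequence just after that listed start was not found in GENCODE transcripts of Il18. Gene counts take a match at any listed start, whereas the shares that follow are per window. Among all RefSeq windows, PU.1 was in 10.6%, TATAAA in 12.4%, AP-1 in 6.75%, C/EBP in 9.56%, IRF in 7.13% and GAS in 7.02%. A match is a description of letters and shows no binding.

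Il1a, a cytokine that also acts when released from dying cells, had 8.27, 10.4 and 6.09 CPM in HFHS livers, against 3.17, 3.63 and 2.42 CPM in chow livers. The groups did not overlap. Il1a rose by a log2 fold change of 1.42 ± 0.26 (SE; edgeR adjusted p = 0.0161). The call was lost only without chow replicate 3, among the alternatives run (edgeR adjusted p = 0.0786). Il1b, the inflammasome-matured cytokine, had 3.00, 6.50 and 3.63 CPM in HFHS livers, against 2.00, 0.550 and 0.875 CPM in chow livers. The chow libraries differed among themselves by a factor of 3.64, with chow replicate 1 the highest. Il1b rose by a log2 fold change of 1.93 ± 0.51 (SE; edgeR adjusted p = 0.0446). The call was lost in 7 of 15 alternatives, among them leaving out any 1 HFHS library, chow replicate 2 or chow replicate 3, at adjusted p-values from edgeR between 0.0509 and 0.155. Without HFHS replicate 2, its log2 fold change was 1.53 (edgeR adjusted p = 0.0767). Without chow replicate 1, it was 2.62 and passed the test. Il1a shares exon sequence with Gm14023 on the other strand, with at most 44 counts in a library, and Il1b with Il1bos, with at most 3. The strand setting of the counting is not given in the sources used here, so reads of these pairs may not have been told apart.

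Il1rn encodes the antagonist that occupies the interleukin-1 receptor without signalling. It had 8.37, 21.0 and 9.72 CPM in HFHS livers, against 5.73, 2.47 and 2.69 CPM in chow livers. HFHS replicate 2 was far above the other HFHS libraries, and chow replicate 1 far above the other chow libraries. Il1rn rose by a log2 fold change of 1.84 ± 0.47 (SE; edgeR adjusted p = 0.0422). Without HFHS replicate 2, it was 1.32 and missed the threshold (edgeR adjusted p = 0.0536), as it did without chow replicate 2 (0.123) and chow replicate 3 (0.151). The ratio of Il1rn to Il1b reads was 2.79, 3.22 and 2.68 in HFHS livers, against 2.86, 4.50 and 3.08 in chow livers. The groups overlapped, with a log2 difference of -0.21 (exact permutation test, two-sided p = 0.5, smallest possible 0.1). The difference was -0.02 without chow replicate 2 and -0.33 without chow replicate 1.

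Il18 encodes a cytokine that, unlike Il1b, is made without prior stimulation in many cells, and whose precursor caspase-1 also cleaves. It had 11.7, 11.7 and 12.7 CPM in HFHS livers, against 26.0, 13.9 and 18.5 CPM in chow livers. All HFHS libraries were below all chow libraries, and the HFHS libraries lay close together while the chow libraries spread by a factor of 1.87. The log2 fold change was -0.69 ± 0.22 (SE; edgeR adjusted p = 0.0713), which missed the threshold. DESeq2 put the same gene past it (adjusted p = 0.0358), as did edgeR without chow replicate 2 (log2 fold change -0.90, adjusted p = 0.04997). Without chow replicate 1, the highest library, the log2 fold change was -0.44 (edgeR adjusted p = 0.167), and with library size as the only scaling it was -0.42 (edgeR adjusted p = 0.233). The secreted inhibitor of interleukin-18, Il18bp, had 25.4, 56.2 and 27.3 CPM in HFHS livers, against 18.3, 9.62 and 12.1 CPM in chow livers. Il18bp rose by a log2 fold change of 1.45 ± 0.38 (SE; edgeR adjusted p = 0.0468), a call lost with the removal of any 1 chow library. Reads of Il18bp per read of Il18 were 2.16, 4.78 and 2.15 in HFHS livers, against 0.704, 0.692 and 0.651 in chow livers. The groups did not overlap, and the log2 difference was 2.04 (exact permutation test, two-sided p = 0.1, the smallest that 3 against 3 allows). Il18bp shares exon sequence with Numa1 on the other strand, which had up to 2030 counts, so its reads carry the same limit on strand.

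**Figure D3:**
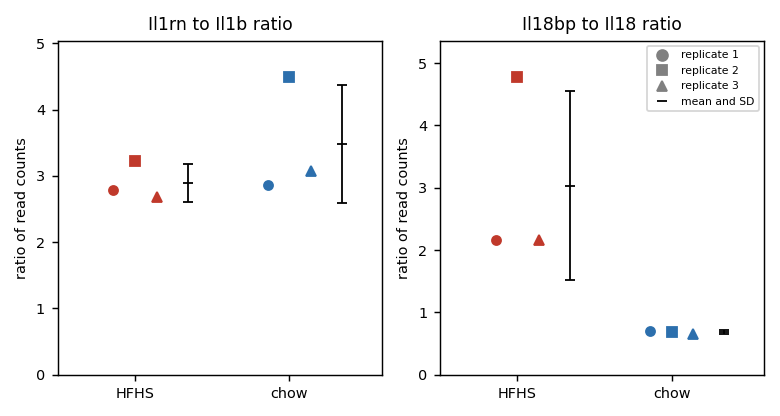
Reads of Il1rn per read of Il1b and of Il18bp per read of Il18 in every library, with HFHS left of chow. Points are libraries and bars are mean and SD (n = 3). The first ratio overlaps between the diets, and the second is 2.15 or more in HFHS livers and at most 0.704 in chow livers.

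Per kilobase of the longest coding transcript, the order of levels differed between the diets at the top. In HFHS livers, Gsdmd averaged 23.3 CPM per kilobase, Il18 13.6 and Casp1 6.48, with no overlap between Gsdmd and Il18 or between Il18 and Casp1. In chow livers, Il18 averaged 22.0 CPM per kilobase, Gsdmd 19.9 and Casp1 1.94, with Il18 and Gsdmd overlapping. Nlrp3 was the lowest of the 10 genes in both, at 0.686 CPM per kilobase in HFHS livers and 0.158 in chow livers. Below Casp1, neighbours in the HFHS order all overlapped in range. In chow livers, the breaks below Casp1 lay between Il1rn and Casp4 and between Aim2 and Pycard. With the union of exons as the length, the order of the top 3 was unchanged and the middle of the order changed.

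Since the macrophage marker list rose with these genes, each was also set against reads of Csf1r, the receptor for macrophage colony-stimulating factor. Csf1r itself rose by a log2 fold change of 1.70 (edgeR adjusted p = 0.00775), so a gene at an unchanged level lies lower on this scale. The share of all tested genes that separate by diet on this scale was not computed. Reads of Casp4 were 4.60, 5.58 and 5.63% of Csf1r reads in HFHS livers, against 2.72, 3.45 and 3.51% in chow livers. Casp4 was the only 1 of the 10 genes with all HFHS libraries above all chow libraries on this scale. Gsdmd reads were 34.4, 27.8 and 39.4% of Csf1r reads in HFHS livers, against 90.9, 101 and 84.2% in chow livers. Il18 reads were 9.66, 7.43 and 12.7% of Csf1r reads in HFHS livers, against 57.7, 41.5 and 48.3% in chow livers. Both lay below the chow libraries on this scale. The other 7 genes overlapped, Casp1 with 7.41, 6.63 and 9.64% in HFHS livers, against 7.79, 6.90 and 7.56% in chow livers. Adgre1, another macrophage marker, rose by a log2 fold change of 2.21 (edgeR adjusted p = 0.00754). With Adgre1 reads as the base, Gsdmd, Il18, Aim2, Casp1 and Il1a lay below the chow libraries. The other 5 genes overlapped on that base, Casp4 among them. With the summed macrophage markers as the base, Casp4 lay above the chow libraries, Aim2, Gsdmd and Il18 lay below, and the rest overlapped. These shares are descriptions with no test, and the part of macrophage number in the results was not tested. Other myeloid markers moved too. Of 9 tested monocyte and dendritic cell markers, 7 rose and 0 fell, beside 11.0% and 3.61% of all tested genes. The summed level of all 10 listed markers, the untested Cd209a included, was 41.5 to 133 CPM in HFHS livers and 9.40 to 14.3 CPM in chow livers. The 7 became 5 without HFHS replicate 2 and 2, 1 and 0 without chow replicates 1, 2 and 3. Of 4 tested neutrophil markers, 0 passed the test in edgeR and 3 had an unadjusted p under 0.05, while DESeq2 called 3 higher. Leaving out HFHS replicate 3 or chow replicate 1 gave 1 call in edgeR, and leaving out both HFHS replicate 2 and chow replicate 1 gave 4. The summed level of all 10 listed neutrophil markers, tested or not, was 12.5 to 41.4 CPM in HFHS livers and 2.36 to 8.68 CPM in chow livers.

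**Figure D4:**
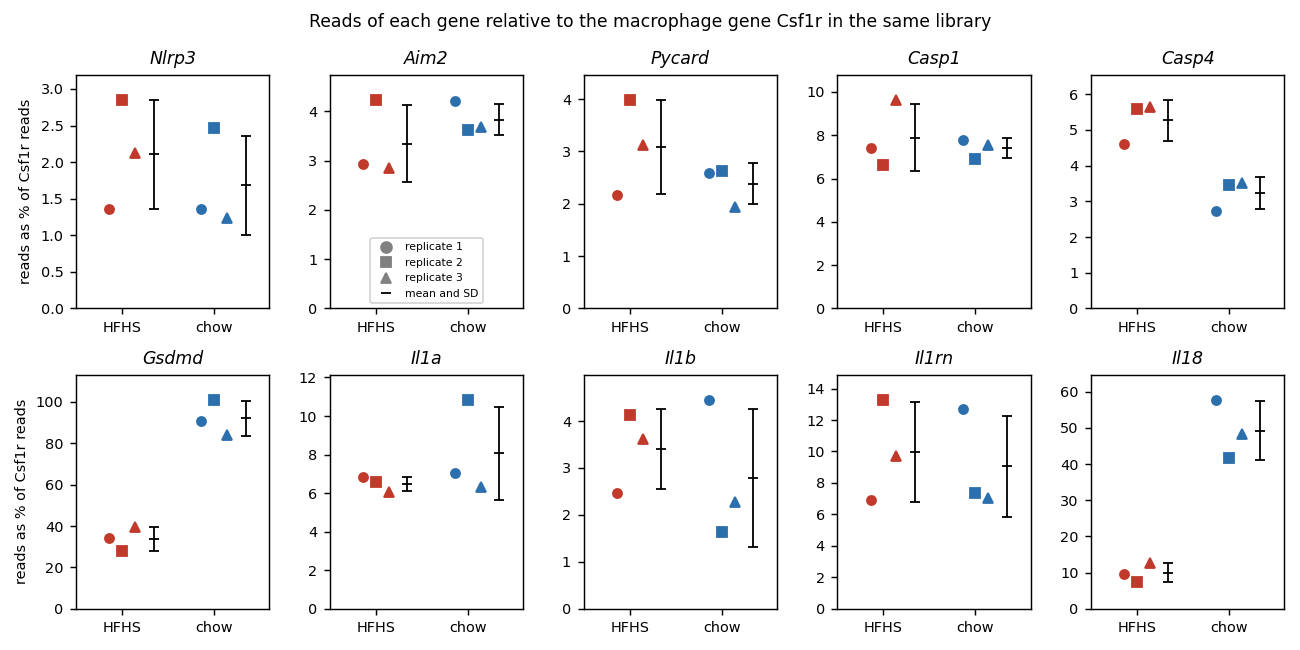
Reads of each of the 10 genes as a percent of Csf1r reads in every library, with HFHS left of chow. Points are libraries and bars are mean and SD (n = 3). Casp4 lies higher in HFHS livers, Gsdmd and Il18 lie lower, and the other 7 genes overlap.

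Among other sensors of the family, 2 of 13 tested genes rose and 0 fell, beside 11.0% and 3.61% of all tested genes. The median log2 fold change of the 13 was 1.26, and it was 0.73 without HFHS replicate 2. Nlrp1a, of the sensor family that senses bacterial proteases, had 13, 34 and 10 counts in HFHS livers, against 2, 1 and 4 counts in chow livers, and rose by 2.58 ± 0.63 on the log2 scale (SE; edgeR adjusted p = 0.0349). Naip5, which recognises bacterial flagellin, had 9.50, 15.1 and 7.54 CPM in HFHS livers, against 4.89, 3.96 and 4.65 CPM in chow livers. Its groups did not overlap, and Naip5 rose by 1.26 ± 0.27 (SE; edgeR adjusted p = 0.0245). Naip1 missed the threshold with a log2 fold change of 1.53 (edgeR adjusted p = 0.0559), and Nod1, a sensor of bacterial cell wall fragments, with one of 0.43 (edgeR adjusted p = 0.0587). Nlrc4, the partner of the Naip proteins, had a log2 fold change of 1.61 (edgeR adjusted p = 0.0837). The Naip and Nlrp1 genes have close copies of one another, and how reads matching several copies were counted is unknown here, so their values are uncertain. At an unadjusted p under 0.05 there were 10 of the 13, of which Nlrp6 was lower in HFHS livers. Nlrp6 had 144, 149 and 130 CPM in HFHS livers, against 170, 200 and 215 CPM in chow livers. Its log2 fold change was -0.47 (SE 0.14; edgeR adjusted p = 0.0606). After removal of any 1 chow library, 0 of these sensors passed the edgeR test, and 1, 1 and 6 passed without HFHS replicates 1, 2 and 3. With all libraries, DESeq2 called 6 higher and 1 lower.

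Of 22 tested genes that regulate inflammasomes or linked forms of cell death, 7 rose and 0 fell. Among all tested genes, the shares were 11.0% and 3.61%. The median log2 fold change of the 22 was 0.98. Beside Casp12, the genes of this list that rose were P2rx7, Trim30a, Ripk3, Mlkl, Ifi204 and Tmem173. P2rx7, the ATP-gated channel upstream of Nlrp3, had 6.35, 12.6 and 5.59 CPM in HFHS livers, against 2.67, 2.91 and 3.10 CPM in chow livers, a log2 fold change of 1.50 ± 0.33 (SE; edgeR adjusted p = 0.0257). Mlkl, which permeabilises the membrane in necroptosis, had 13.5, 16.6 and 18.7 CPM in HFHS livers, against 6.23, 4.23 and 4.78 CPM in chow livers, a log2 fold change of 1.68 ± 0.20 (SE; edgeR adjusted p = 0.00786). HFHS replicate 3, not replicate 2, was the highest library for Mlkl. Ripk3, the kinase that activates Mlkl, rose by 0.95 ± 0.25 on the log2 scale (SE; edgeR adjusted p = 0.0415). Trim30a, an interferon-induced protein of the TRIM family, had 22.0, 22.6 and 16.5 CPM in HFHS livers, against 8.68, 7.86 and 6.67 CPM in chow livers, a log2 fold change of 1.40 ± 0.17 (SE; edgeR adjusted p = 0.00858). Ifi204, a DNA-binding protein of the same family as Aim2, rose by 1.66 ± 0.22 (SE; edgeR adjusted p = 0.0101). Tmem173, which encodes the DNA-response adaptor STING, rose by 1.96 ± 0.36 (SE; edgeR adjusted p = 0.0165). Nek7, the kinase that binds the Nlrp3 protein, had 62.2, 66.8 and 70.6 CPM in HFHS livers, against 79.8, 79.1 and 78.4 CPM in chow livers, and missed the threshold (edgeR adjusted p = 0.126). Panx1, a channel that releases ATP, and Gsdme, another gasdermin, missed it too, at edgeR adjusted p-values of 0.0616 and 0.0707. Without chow replicate 3, 1 of the 22 genes passed the test.

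Downstream of the cytokines, 1 of 5 tested receptors and decoys rose, Il18bp, and 1 fell, Il1rap. Among all tested genes, the shares were 11.0% and 3.61%. Il1rap, the co-receptor that interleukin-1 signalling needs, had 139, 107 and 128 CPM in HFHS livers, against 185, 201 and 220 CPM in chow livers. Il1rap fell by 0.70 on the log2 scale (SE 0.15; edgeR adjusted p = 0.0224), a call lost with any 1 chow library removed. The receptor Il1r1 had 45.3, 58.7 and 54.6 CPM in HFHS livers, against 40.7, 27.3 and 44.4 CPM in chow livers, and missed the threshold (edgeR adjusted p = 0.122), as did Il18rap, a chain of the interleukin-18 receptor (edgeR adjusted p = 0.140). Il33, the 1 other ligand of the family with enough reads, had a log2 fold change of 0.76 ± 0.28 (SE; edgeR adjusted p = 0.101). Il1f5, Il1f6 and Il1f10 had 0 counts in all 6 libraries. Of 19 tested genes of interleukin-1 signalling, from Myd88 to the NF-kB subunits, edgeR called 0, limma-voom called 0 and DESeq2 called 5, all higher. At an unadjusted p under 0.05 there were 8, of which Ikbkb and Tollip were lower in HFHS livers. The median log2 fold change of the list was 0.03, which was -0.07 without HFHS replicate 2. Relb, an NF-kB subunit, missed the threshold at 1.49 ± 0.41 (SE; edgeR adjusted p = 0.0508). Irak4, the kinase next to Myd88, missed it at 0.48 ± 0.13 (SE; edgeR adjusted p = 0.0517).

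Of 11 tested genes known to respond to interleukin-1, 1 rose and 0 fell, beside 11.0% and 3.61% of all tested genes. The median log2 fold change of the 11 was 1.49. The median was 0.45 without HFHS replicate 2 and 2.55 without chow replicate 1. Icam1, a leukocyte adhesion molecule, had 25.0, 51.9 and 23.0 CPM in HFHS livers, against 15.6, 10.4 and 9.43 CPM in chow livers, and rose by 1.49 ± 0.36 (SE; edgeR adjusted p = 0.0375). Saa1, an acute-phase protein of hepatocytes, had 307, 1034 and 192 CPM in HFHS livers, against 290, 36.2 and 46.4 CPM in chow livers. HFHS replicate 2 and chow replicate 1 were the highest of their groups, as for Il1b and Il1rn, and the groups overlapped. Reads of Saa1 and its close copy Saa2 may have been shared between them. Saa1 missed the threshold (edgeR adjusted p = 0.228). Lcn2 had 156, 378 and 92.0 CPM in HFHS livers, against 67.4, 3.08 and 5.12 CPM in chow livers, and also missed it (edgeR adjusted p = 0.158). Ccl2, a chemokine that draws monocytes, had 1.91, 14.3 and 3.24 CPM in HFHS livers, against 1.61, 0.605 and 0.337 CPM in chow livers (edgeR adjusted p = 0.0800). Icam1 was not among the calls without chow replicate 2 or 3, where 0 of the 11 genes passed the edgeR test. Without both HFHS replicate 2 and chow replicate 1, 6 of the 11 genes passed the test, and 7 of the 10 inflammasome and interleukin-1 genes did. Leaving out this pair was chosen after seeing the data.

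**Figure D5:**
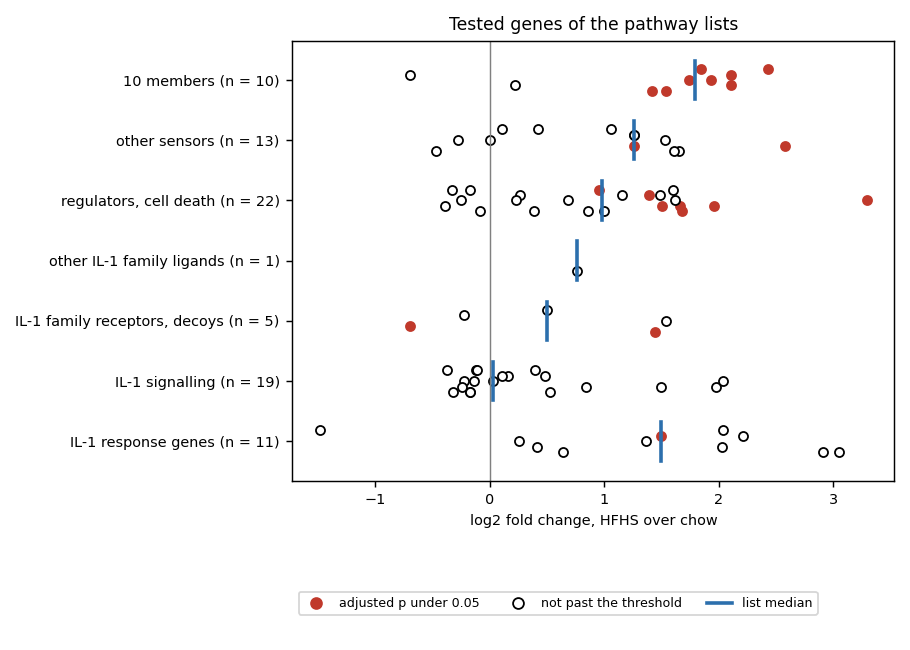
Log2 fold change of HFHS over chow for every tested gene of the 10 inflammasome and interleukin-1 genes and of 6 lists around them. Each point is a gene, filled where the edgeR adjusted p is under 0.05, and bars mark list medians. The median is 1.79 for the 10 genes and 0.03 for interleukin-1 signalling.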

How the data were processed

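Per the labels' protocols, polyA RNA of frozen liver was made into dUTP-based stranded libraries. Reads were aligned with STAR to mm10, per the submitters' processing notes. The counting program, its annotation and its strand setting are not named in the sources. The deposited values are counts of reads per gene, not normalised, with 1 table per library. Rows for reads outside genes (7.74 to 10.6% of counts) and for ambiguous reads (0.615 to 0.862%) were left out.

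Samples were grouped by the diet label. Genes were filtered with filterByExpr (minimum count 10), scaled by TMM and tested for diet, with no covariate, by edgeR's robust quasi-likelihood test (edgeR 4.0.16, limma 3.58.1, R 4.3.3), with Benjamini-Hochberg adjustment over 12949 genes and a threshold of 0.05. The scripts were tested on simulated data, in which 200 of 12949 genes were changed. There edgeR made 149 calls, 15 of them wrong, and found 45% of 2-fold and 89% of 4-fold changes. DESeq2 made 211 calls, 57 of them wrong, and found 60% and 94% of these changes. With limma-voom, 15 of 151 calls were wrong. The wrong share was above 0.05 for each method and largest for DESeq2, so genes called by DESeq2 alone are less certain. Ratios of reads carry gene length and were tested as log2 values with a pseudocount of 0.5. The floor of 3 counts covers counting error only, and the ± values are SE of the fit over libraries. Positions and lengths come from GENCODE M21 (GRCm38), and promoters from RefSeq (GRCm38.p6), where Gsdmd was not matched. Alternatives were other scalings and filters, DESeq2 1.42.0, limma-voom, a replicate block and leaving out each library. The 10 genes, the lists around them and the genes named were chosen with earlier results of these data known. The rule for named genes takes all 10, the called genes of each pathway list (the 5 with the smallest p where more pass), the 2 nearest to the threshold, and the 3 most like Nlrp3, Il1b and Il18. P2rx7, Ripk3, Nek7, Nlrc4, Nlrp6, Ikbkb, Tollip and Saa1 fall outside it, chosen once values were known.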

Additional observations from a re-analysis of the deposited data

How the results depend on the processing

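None of the 10 genes changed direction in any of the 15 alternatives run for each. The number called, 8, was 4 with limma-voom and 5 with the replicate block, and ran from 0 (without chow replicate 3) to 7 when 1 library or the pair of HFHS replicate 2 and chow replicate 1 was left out. Over all genes, 1896 calls became 1243 with the replicate block and ran from 6 to 2436 with libraries left out, where removing chow replicate 1 gave 939, chow replicate 2 gave 458 and chow replicate 3 gave 6. The replicate numbers share no source in the labels, and deviations of same-numbered libraries correlated at -0.25, -0.17 and 0.03, so they were not taken as pairs. The block changed the calls of Aim2, Il1b and Il1rn. DESeq2 called 9 of the 10 genes, with Il18 lower, and Il18 was also called without chow replicate 2 (log2 fold change -0.90, edgeR adjusted p = 0.04997). Scaling by library size alone moved the median of all genes by 0.27 on the log2 scale and gave 1928 higher and 200 lower calls, against 1428 and 468 with TMM. The cause of these changes was not tested. Nlrp3, Aim2, Pycard, Casp4 and Il1b rest on 7 to 36 counts in each chow library, which limits their precision.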

Other observations

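Markers of cells that line bile ducts were also higher in HFHS livers. Of 8 tested cholangiocyte markers, 5 rose and 0 fell, beside 11.0% and 3.61% of all tested genes. The summed level of the 8 was 190 to 323 CPM in HFHS livers and 44.6 to 80.2 CPM in chow livers. Spp1, or osteopontin, which other cells also make, had 190, 264 and 161 CPM in HFHS livers, against 39.5, 34.3 and 18.3 CPM in chow livers. Without chow replicates 1, 2 and 3 in turn, 3, 2 and 0 of the 8 passed the edgeR test. Of 7 tested lymphocyte markers, 1 rose and 0 fell, beside 11.0% and 3.61% of all tested genes. Without chow replicate 2 or chow replicate 3, 0 of these markers passed the edgeR test. The summed level of all 10 listed lymphocyte markers, with the untested Cd3d, Cd3e and Cd3g, was 7.93 to 15.4 CPM in HFHS livers and 3.91 to 7.51 CPM in chow livers.

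The genes whose levels over the 6 libraries were most like those of Nlrp3, by the mean absolute difference of log2 CPM centred on each gene, were Col5a2, a fibrillar collagen chain, at 0.082, Miga1 at 0.12 and Tbxas1, thromboxane synthase, at 0.14. The median of 10992 candidate genes was 0.96. For Il1b they were Vcam1, a leukocyte adhesion molecule, at 0.094, AI662270 at 0.11 and Btk, a kinase of B cells and myeloid cells, at 0.14. For Il18 they were Dclre1a, Saa4 and A930005H10Rik, each at 0.10. All 6 libraries share the diet contrast, so these values are a description and carry no test.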
